A study of Rattus norvegicus with 16 samples.

Results

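The genes described are the chemokines and the chemokine receptors, chosen by gene symbol from the array's own gene names: 54 of the 19776 named genes on the array, of which 34 encode ligands and 20 encode receptors. They were read in whole tissue of suckling Wistar rats (Wistar Han in the study's methods), in the stomach and in the middle part of the intestine. The choice by symbol used no measured value, and the brightest probe stood for each gene. Control rats (C) were given saline and the treated rats (OH) were given obestatin, a peptide cut from the ghrelin precursor, at 250 nmol/kg, both by gavage 2 times daily, beginning on day 14 and ending on day 21 of life, while all pups stayed with their mothers. Crossing treatment with tissue gave 4 groups of 4 arrays, 16 arrays in all. All rats were suckling pups of the same stock, drawn from litters that each received 1 treatment, and the labels do not tie an array to a litter. Each array carried the rat's own RNA in the red dye Cy5 and a pool of RNA from all rats in the green dye Cy3, with no dye swap, so each value is the log2 ratio of rat to pool, log2(Cy5/Cy3), and it ranks a gene across samples but not against another gene.

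Chemokines are small secreted proteins that guide leukocytes along a gradient, and they act through membrane receptors coupled to inhibitory G proteins. Some are made constantly by an epithelium or by lymphoid stroma and direct homing, and others are switched on by interferons, interleukin-1 or microbes. In the gut, Ccl25 from the small intestinal epithelium and its receptor Ccr9 are known for bringing T cells and plasma cell precursors to the mucosa, Ccl20 and Ccr6 for the lymphoid follicles, and Ccl28 for mucosal antibody-secreting cells. In bulk tissue, fewer cells of a type and less RNA per cell cannot be told apart.

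Each of the 4 groups was on a slide of its own, and the OH slides were scanned on another day than the C slides, so that slide and scan cannot be told apart from treatment or from tissue. The pool's median raw signal was 188 to 195 on the C arrays and 341 to 399 on the OH arrays. A probe was called well above background in Cy5 for 69.4 to 77.6% of spots per array, and the number of arrays limits the precision. The labelled tissues carried their markers: all 12 genes listed for acid-secreting glands and surface epithelium of the stomach were higher there in C and in OH, and of 13 enterocyte genes that could be tested, 11 were lower in stomach in C and 11 in OH, with 1 higher in C. Over all probes tested, the lowest correlation within a group was between OH stomach replicates 1 and 3 (r = 0.71). By marker lists another pair of arrays stood apart, and results were also computed without them: C stomach replicate 2, whose mean over the striated muscle genes was -0.74 against 3.09 to 3.88 on the other C stomach arrays, and OH middle intestine replicate 4, whose mean over pancreas genes was -1.70 against -3.34 to -3.07. The striated muscle mean was -0.27 to 0.87 on the OH stomach arrays, also below the other C stomach arrays. Between OH and C stomach, 9 of 13 striated muscle genes had an unadjusted p under 0.05 by limma (median difference -2.22). So did 4 of 7 smooth muscle genes (median 1.46), with none under 0.05 after adjustment in either list. How far muscle in the piece taken enters the OH against C stomach values was not tested.

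Among the 54 genes, 39 were bright enough to be tested, with a probe well above background throughout 1 group or more (28 ligands and 11 receptors), which is 72.2% against 73.4% of all genes. The ligands Ccl1, Ccl4, Cxcl1, Cxcl2, Cxcl5 and Cxcl9 and the receptors Ccr1, Ccr2, Ccr4, Ccr10, Cxcr1, Cxcr3, Cxcr5, Cxcr6 and Xcr1 did not reach that level and were not tested. Ccr4, Cxcr1 and Xcr1 were well above background on no array. On all 16 arrays, 22 ligands and 6 receptors were well above background.

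The log2 differences between the tissues ran from -7.54 to 6.67 in C, while the share of genes that passed in either direction was close to that of all genes. In C, 18 of the 39 genes passed an adjusted p of 0.05 (limma, Benjamini-Hochberg over all probes tested), against 46.7% of all genes; 5 were higher in stomach (background 22.8%) and 13 were higher in the middle intestine (background 23.9%). In OH, 17 passed (background 40.8%), 3 higher in stomach (20.3%) and 14 higher in the middle intestine (20.5%). The median difference, stomach minus middle intestine, was -0.55 in C and -0.26 in OH on the log2 scale, where the medians of all genes were -0.03 and 0.01. Passing in both C and OH with the same direction were 2 genes higher in stomach (background 16.8%) and 12 higher in the middle intestine (background 17%). Genes such as Ccl25, Ccl26, Ccl28 and Ccr3 could be tested only because they were bright in the intestine. Cxcr2 could be tested only because it was bright in C stomach. These counts therefore describe the genes and support nothing further. Among genes well above background on all 8 arrays compared, 8 of 29 were higher in the middle intestine in C, a share near the background of 24.8%, and 10 of 32 in OH (background 20.7%). Among the genes that passed in both, 8 differed by at least 2 on the log2 scale in both (background 7.03%): Ccl25, Ccl26, Cxcl11, Ccl28, Ccr6 and Ccr3 higher in the middle intestine, and Cxcl17 and Cx3cr1 higher in stomach. The Cx3cr1 value comes from a probe with a CA repeat, described below, and may not be that of the gene.

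**Figure D1:**
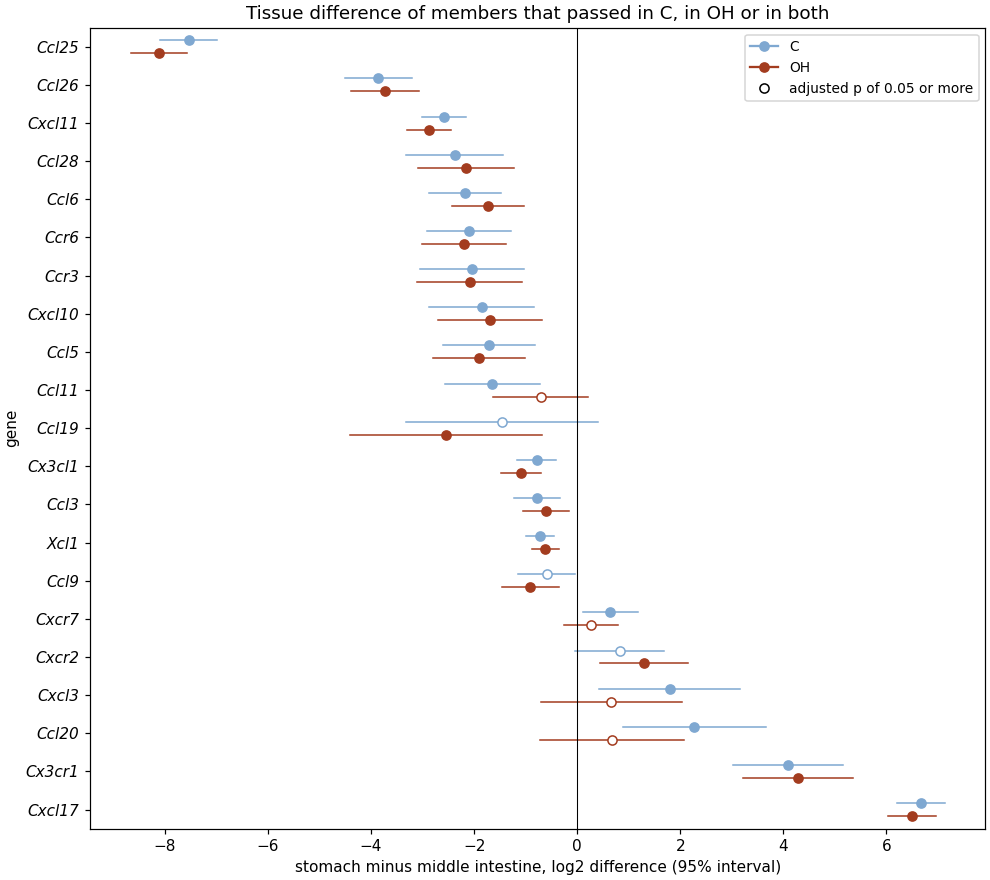
Log2 difference, stomach minus middle intestine (x axis), of each gene (rows) that passed in C, in OH or in both; blue marks C and red marks OH, bars are 95% intervals of the limma fit over 4 arrays a group, and open circles have an adjusted p of 0.05 or more. Ccl25 lies at -7.54 and -8.11 and Cxcl17 at 6.67 and 6.50, with most of the other genes between -4 and 0.

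Ccl25 was far higher in the middle intestine than in stomach. Its probe reads chr12:1427312-1427371 on the minus strand of rn4, the build the array files use, shown here because a wide contrast rests on it:
Ccl25 probe: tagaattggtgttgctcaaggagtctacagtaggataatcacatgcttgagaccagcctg
The strand of this probe in rn4 is unlike the strand of Ccl25 in RefSeq's GRCr8, the only such case among 41 members with a promoter entry there, and how the 2 builds are oriented was not compared. In C stomach the log2 ratios were -6.38, -6.14, -5.40 and -5.55, and in C middle intestine 1.53, 1.48, 2.32 and 1.34. In OH stomach they were -6.65, -6.76, -6.47 and -6.70, and in OH middle intestine 1.03, 1.87, 1.73 and 1.23. The 8 stomach arrays all lay far below the 8 intestine arrays, with no overlap, and none of the 8 was well above background. The middle intestine was at least 175-fold higher in C and at least 179-fold higher in OH, under a bound that sets the dim stomach signal at the lowest signal called well above background and takes the lower of the folds given by Cy5 alone and by the ratio. A probe that was not called can lie above that lowest signal, as Cxcl2 did in C middle intestine. Each fold given as at least a value, here and below, therefore holds under this setting and is not a detection limit. The fitted log2 differences were -7.54 in C (SE 0.257; adjusted p = 2.42e-11 by limma) and -8.11 in OH (adjusted p = 1.32e-11), and with normexp background correction and loess, which adds an offset to dim signals, they were -3.87 and -4.27 and still passed, smaller in size than those of Cxcl17, described next. Ccr9, the receptor of Ccl25, was well above background on all 16 arrays. Its ratios ran from 0.30 to 0.56 in C stomach, -0.19 to 1.00 in OH stomach, 0.51 to 1.22 in C middle intestine and 0.36 to 0.82 in OH middle intestine. The groups overlapped, and the difference was -0.29 in C (95% interval -0.78 to 0.20) and 0.07 in OH (-0.42 to 0.56), so the ligand differed between the tissues and no difference was detected for the receptor.

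Cxcl17, a chemokine of mucosal epithelia, went the other way. Its probe lies at chr1:80683134-80683193 on the minus strand of rn4, and is shown as the counterpart of Ccl25:
Cxcl17 probe: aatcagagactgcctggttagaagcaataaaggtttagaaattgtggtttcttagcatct
The ratios were 2.62, 3.38, 2.59 and 2.45 in C stomach and 2.15, 2.91, 3.14 and 2.79 in OH stomach. The intestine arrays read -3.94, -3.80, -3.97 and -3.93 in C and -3.71, -3.97, -3.49 and -3.83 in OH. Every stomach array lay above every intestine array, and the probe was well above background on all 16. The stomach was 102-fold higher in C (log2 difference 6.67, SE 0.216; limma adjusted p = 1.36e-11) and 90.2-fold higher in OH (6.50; adjusted p = 2.07e-11). Beside these genes, the mean over the oxyntic and surface mucosa list was 2.50 to 3.10 on the C stomach arrays and -4.08 to -3.86 on the C intestine arrays, and the mean over the enterocyte list was -3.80 to -3.51 and -0.59 to 0.08; their part in the result was not tested.

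**Figure D2:**
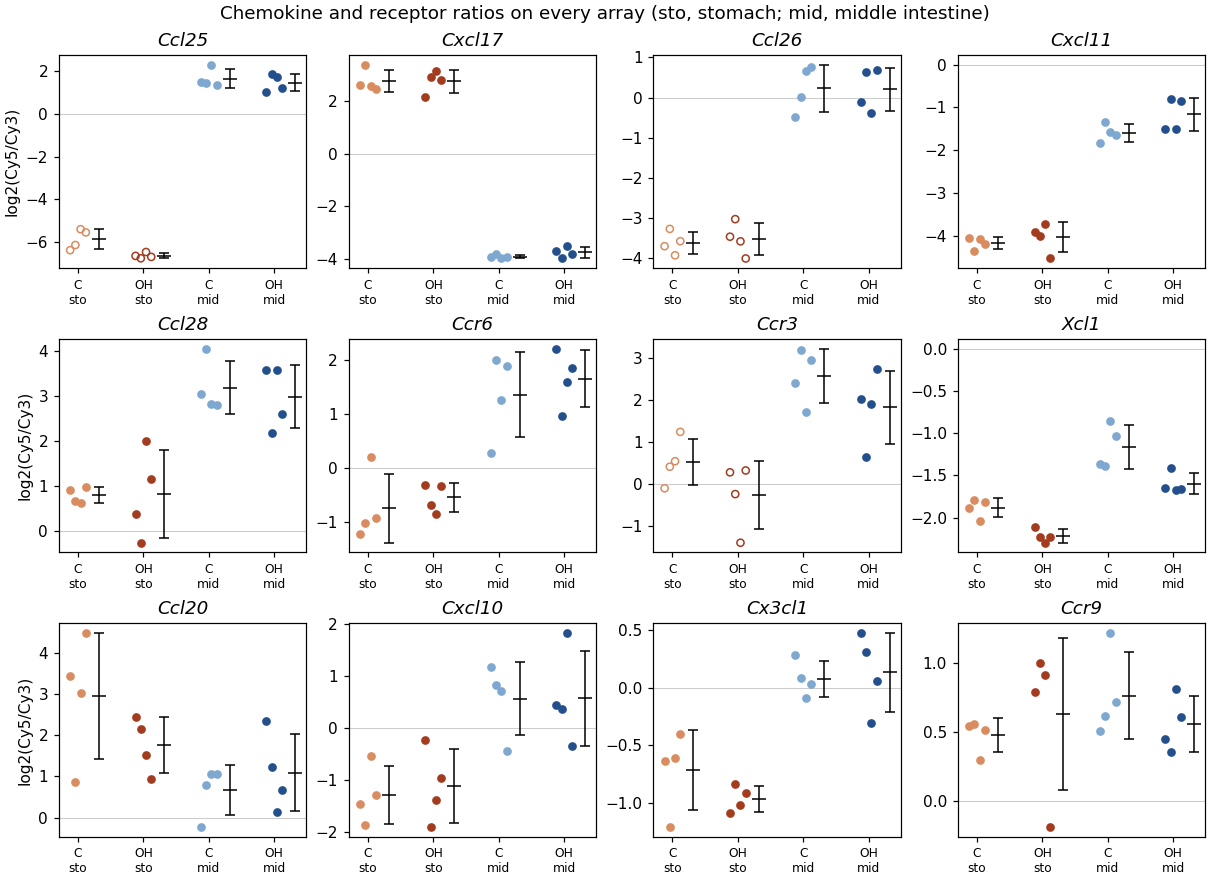
Log2(Cy5/Cy3) on each array (y axis) for 12 chemokine and receptor genes (panels) in the 4 groups (x axis); points are arrays, open where no array of the group was well above background, and bars are the mean and SD of 4 arrays. In the Ccl25 panel the stomach points lie between -6.76 and -5.40, and in the Cxcl17 panel the intestine points lie between -3.97 and -3.49.

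The eotaxin system, which draws eosinophils, was higher in the middle intestine in both C and OH at 1 ligand, Ccl26, and at the receptor. For Ccl26 the ratios in stomach were -3.70, -3.27, -3.93 and -3.58 in C and -3.47, -3.03, -3.58 and -4.01 in OH. Their intestine counterparts were -0.48, 0.00, 0.65 and 0.77 in C and -0.10, 0.64, -0.39 and 0.68 in OH. No stomach array was well above background, and the tissues did not overlap. The middle intestine, where 3 of 4 C arrays and all 4 OH arrays were well above background, was at least 9.38-fold higher in C and at least 8.78-fold higher in OH (limma adjusted p = 1.71e-07 and 2.72e-07). Ccr3, the eotaxin receptor, had ratios of -0.10, 0.41, 0.54 and 1.24 in C stomach and 2.41, 3.18, 1.72 and 2.95 in C middle intestine. In OH they were 0.28, -0.24, -1.40 and 0.32 in stomach and 2.02, 0.64, 1.91 and 2.73 in the middle intestine. The tissues did not overlap in C or in OH, and again no stomach array was well above background. The log2 differences of Ccr3 were -2.04 in C and -2.09 in OH (adjusted p = 0.00299 in both by limma), or at least 3.82-fold and at least 3.64-fold higher in the middle intestine, and the gene was tested only because all 4 C intestine arrays were well above background, as were 3 of 4 in OH. Both probes were dim: with normexp and loess the log2 differences shrank to -0.81 and -0.88 for Ccl26 and to -0.46 and -0.45 for Ccr3, and with Cy5 alone they were -2.97 and -2.86 for Ccr3, all of which passed. The other eotaxins did not follow as a set. Ccl11 was lower in stomach in C (-1.65; adjusted p = 0.00625), whereas in OH the difference was -0.71 (adjusted p = 0.209), and Ccl24 differed by -0.13 and -0.26 (adjusted p = 0.311 and 0.0568). Of 9 mast cell and eosinophil genes tested, 4 were higher and 1 lower in stomach in C, and 2 and 1 in OH. Their median differences were 0.63 and 0.40, and their part in the eotaxin values was not tested.

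Ccl28, which binds Ccr3 and Ccr10 and is known for guiding antibody-secreting cells to mucosae, gave ratios of 0.92, 0.68, 0.64 and 0.98 in C stomach and 3.05, 4.04, 2.83 and 2.80 in C middle intestine. In OH they were 0.39, -0.25, 2.00 and 1.17 in stomach and 3.58, 2.18, 3.57 and 2.60 in the middle intestine. The lowest intestine array of each treatment lay above its highest stomach array. The log2 difference was -2.38 in C and -2.16 in OH (SE 0.439; adjusted p = 0.000546 and 0.00137 by limma), with 3 of 4 arrays well above background in each stomach group, and -0.74 and -0.88 with normexp and loess. Ccl28 was thus tested only because it was well above background throughout a group of the middle intestine, where it was higher. Ccr10 was well above background on 2 arrays of each group and was not tested.

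Among the interferon-induced ligands of Cxcr3, which draw activated T cells, Cxcl11 and Cxcl10 were both higher in the middle intestine. Cxcl11 had ratios of -4.06, -4.37, -4.09 and -4.21 in C stomach and -1.84, -1.35, -1.57 and -1.66 in C middle intestine. In OH they were -3.91, -4.00, -3.72 and -4.54 in stomach and -1.50, -0.80, -1.50 and -0.85 in the middle intestine. The tissues were separated on every array, by -2.58 in C and -2.88 in OH (SE 0.199; limma adjusted p = 1.23e-07 and 4.11e-08), or -1.85 and -2.21 with normexp and loess. Cxcl10 had ratios of -1.46, -1.86, -0.55 and -1.30 in C stomach and 1.17, 0.83, 0.71 and -0.45 in C middle intestine. In OH they were -0.23, -1.91, -1.38 and -0.97 in stomach and 0.45, 0.36, 1.82 and -0.35 in the middle intestine. Here C separated narrowly and OH overlapped at 1 array on each side, with differences of -1.86 and -1.69 (SE 0.475; limma adjusted p = 0.00561 and 0.0113) and -1.21 in C with normexp and loess. Of the rest of this system, Cxcl9 and Cxcr3 were not tested, since the highest number of arrays of a group well above background was 3 for each.

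The genes of Cxcl10 and Cxcl11 lie near each other on chromosome 14 and moved in the same direction between tissues, so the 250 bases before their starts are shown (RefSeq, GRCr8, plus strand, chr14:15988816-15989065 and chr14:15973478-15973727). Capitals mark matches on either strand to a kappaB motif (GGG and TTCC with 3 bases between), an interferon-stimulated response element (GAAA and GAAA with 2 bases between), a Cdx motif (TTTATG) and a GATA motif (TGATAA):
Cxcl10 promoter: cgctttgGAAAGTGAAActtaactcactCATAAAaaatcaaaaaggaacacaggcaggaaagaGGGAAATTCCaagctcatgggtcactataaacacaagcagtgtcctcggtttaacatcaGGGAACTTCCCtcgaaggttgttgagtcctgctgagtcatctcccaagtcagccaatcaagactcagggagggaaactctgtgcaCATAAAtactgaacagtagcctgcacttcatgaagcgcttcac
Cxcl11 promoter: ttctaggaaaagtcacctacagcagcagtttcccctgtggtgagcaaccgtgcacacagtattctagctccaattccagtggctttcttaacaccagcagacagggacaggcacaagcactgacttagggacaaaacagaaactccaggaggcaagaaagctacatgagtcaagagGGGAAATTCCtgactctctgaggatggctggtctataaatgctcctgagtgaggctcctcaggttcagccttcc
The Cxcl10 window held matches to the kappaB, interferon response and Cdx letters, and the Cxcl11 window to the kappaB letters alone. Over all 27457 RefSeq promoters of this length, 4.53% held the kappaB letters, 3.29% the interferon response letters, 11.2% the Cdx letters and 7.87% the GATA letters. Of the 41 genes of the 54 with an entry, 10 held the kappaB letters, 2 the interferon response letters, 9 the Cdx letters and 1 the GATA letters. A match is a run of letters and not a site shown to be bound. The windows of Ccl25 and Cxcl17 held none of the 4 motifs.

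Ccr6, the receptor of Ccl20 on lymphocytes and dendritic cells of mucosal follicles, was higher in the middle intestine while its ligand was not. Ccr6 had ratios of -1.23, -1.02, 0.19 and -0.94 in C stomach and 0.28, 1.99, 1.26 and 1.88 in C middle intestine. In OH they were -0.32, -0.70, -0.85 and -0.33 in stomach and 2.20, 0.95, 1.58 and 1.85 in the middle intestine. The groups did not overlap, although C stomach replicate 3 and C middle intestine replicate 1 were close, at 0.19 and 0.28. The log2 differences were -2.10 and -2.20 (SE 0.384; limma adjusted p = 0.000489 and 0.000394), and -1.15 and -1.47 with normexp and loess. Ccl20 had ratios of 3.43, 0.85, 3.02 and 4.48 in C stomach, 2.45, 2.14, 1.53 and 0.94 in OH stomach, -0.23, 0.80, 1.06 and 1.06 in C middle intestine and 2.35, 1.22, 0.14 and 0.66 in OH middle intestine. It was high on 3 of the 4 C stomach arrays and within the range of the intestine on the fourth, replicate 2. The difference was 2.27 in C (SE 0.652; limma adjusted p = 0.0111, exact permutation p = 0.0857, two-sided) and 0.67 in OH (adjusted p = 0.446), and 2.97 in C without C stomach replicate 2. Its other probe gave 2.26 and 0.70. The mean over forestomach genes, keratins and cornified envelope genes of squamous epithelium, was 1.13, 0.30, 1.85 and 1.48 on the C stomach arrays, lowest on the same replicate. On the OH stomach arrays it was 0.26, 1.12, 0.34 and 0.49, lowest on replicate 1, where Ccl20 was the highest of that group. The part of these genes in the result was not tested.

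Among the inflammatory CC ligands, Ccl5, Ccl6 and Ccl3 were lower in stomach in C and in OH, and Ccl9 in OH. Ccl5, a chemokine made by T cells and other cells, differed by -1.72 in C and -1.91 in OH (SE 0.417; limma adjusted p = 0.00405 and 0.00222), with ratios of -3.06 to -1.29 over the stomach arrays and -1.78 to 0.39 over the intestine arrays. Ccl6, a rodent ligand of Ccr1, differed by -2.17 and -1.73 on 1 probe and by -1.83 and -1.48 on another. Ccl3 differed by -0.78 and -0.60, and by -0.25 in both with normexp and loess, and Ccl9 by -0.59 (adjusted p = 0.0785) and -0.91 (adjusted p = 0.0128). Left out singly, OH stomach replicates 2 and 3 and OH middle intestine replicates 1, 3 and 4 each ended the OH call of Ccl3, with differences of -0.60 to -0.50 and adjusted p values of 0.0596 to 0.0926. Xcl1, a chemokine of NK cells and T cells that draws cross-presenting dendritic cells, was lower in stomach by -0.72 in C and -0.62 in OH (SE 0.124; limma adjusted p = 0.00029 and 0.0012), and its receptor Xcr1 was on no array well above background. The monocyte ligands Ccl2, Ccl7 and Ccl12, the dendritic cell ligands Ccl17 and Ccl22, and Ccl27, Cxcl14 and Cxcl16 passed in neither. Beside these ligands, 7 of the 8 T cell genes tested were lower in stomach in C and 7 in OH, with a median of -1.93 and -1.92, and Cd3e was well above background on no stomach array. The mean over the T cell list was -2.00 to -1.77 in C stomach, -1.98 to -1.60 in OH stomach, -0.03 to 0.88 in C middle intestine and 0.03 to 0.90 in OH middle intestine; its part in these differences was not tested.

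Cxcl3 and its receptor Cxcr2, a pair known for drawing neutrophils, were higher in stomach in 1 treatment each, Cxcl3 in C and Cxcr2 in OH, while Cxcl1, Cxcl2 and Cxcl5 were not tested. Cxcl3 had ratios of 2.20, -0.53, 1.40 and 0.19 in C stomach and 0.37, -0.68, -1.35 and -2.26 in C middle intestine, which overlap. A second probe of Cxcl3 was well above background on no array and was not tested. On the probe used, the difference was 1.80 in C (limma adjusted p = 0.0333), or 1.08 with normexp and loess, and 0.66 in OH (adjusted p = 0.441). Its call was lost without C stomach replicate 1 (1.33; adjusted p = 0.111), C stomach replicate 3 (1.60; 0.0862), C middle intestine replicate 2 (1.90; 0.0502), replicate 3 (1.67; 0.0717) or replicate 4 (1.37; 0.104). Cxcr2 was higher in OH stomach by 1.30 (adjusted p = 0.0195), at least 1.89-fold, since no OH intestine array was well above background, and in C the difference was 0.82 (adjusted p = 0.109). Cxcr2 was tested only because C stomach was well above background throughout, and 3 of 4 OH stomach arrays were. The OH value was 0.14 with normexp and loess (adjusted p = 0.284), and 1.10, 1.11 and 1.09 without OH stomach replicate 2, OH stomach replicate 4 or OH middle intestine replicate 1 (adjusted p = 0.0641, 0.0628 and 0.0621), whereas the C value passed without C middle intestine replicate 1 (1.22; adjusted p = 0.014). Of 5 neutrophil genes tested, 0 were higher in stomach, and 1 was lower in C and 2 in OH.

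The probe of Cx3cr1, the fractalkine receptor of mononuclear phagocytes, read higher in stomach, and its sequence bears on how that is read. The probe lies at chr8:125033728-125033787 on the minus strand of rn4 and ends in 11 CA units, the only probe of the 54 genes to share a run of 20 bases with probes of other genes. It is shown beside probes of Ackr4, an atypical receptor that scavenges Ccl19, Ccl21 and Ccl25, and of Rassf2, with the CA repeat in capitals:
Cx3cr1 probe: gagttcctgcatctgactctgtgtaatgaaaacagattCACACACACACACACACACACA
Ackr4 probe: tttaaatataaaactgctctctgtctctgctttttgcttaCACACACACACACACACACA
Rassf2 probe: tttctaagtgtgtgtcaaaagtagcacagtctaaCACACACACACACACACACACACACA
The Cx3cr1 ratios were -0.11, 2.10, -0.24 and 0.29 in C stomach and -0.31, 1.59, 1.03 and 2.16 in OH stomach. Intestine ratios were -3.62, -3.71, -3.68 and -3.30 in C and -2.93, -3.23, -3.34 and -3.17 in OH. The tissues did not overlap, and the differences were 4.08 and 4.29 (SE 0.499; limma adjusted p = 1.39e-05 and 9.47e-06). All 13 other probes with at least 8 CA units passed as higher in stomach in C and in OH, by 3.04 to 4.28 in C (median 3.59) and 3.09 to 4.39 in OH (median 3.77), Ackr4 by 4.06 and 4.39. Over the 16 arrays the Cx3cr1 ratio lay within 0.54 of the median of those 13. Of 10 probes with at least 8 TG units, the complement of the same repeat, 0 passed as higher in stomach in both, with medians of -0.95 and -0.98. The green channel, the same pool on every array, moved too: with each channel scaled to its upper quartile on each array, for Cx3cr1 the Cy5 signal alone was higher in stomach by 2.48 and 2.28 and the pool's Cy3 signal was lower there by 1.62 and 2.05 on the log2 scale. Cx3cr1 RNA and RNA that carries the repeat cannot be told apart on this probe. Without Cx3cr1, 17 of 38 genes passed in C, 4 of them higher in stomach, and 16 of 38 passed in OH, 2 of them higher in stomach. Its ligand Cx3cl1, made by epithelium and endothelium, has no such repeat and was lower in stomach, by -0.79 in C and -1.10 in OH (SE 0.181; adjusted p = 0.00277 and 0.000245). The Cx3cl1 ratios were -0.64, -1.21, -0.61 and -0.40 in C stomach, -1.09, -0.84, -1.02 and -0.91 in OH stomach, 0.28, 0.08, -0.08 and 0.03 in C middle intestine and 0.47, 0.31, -0.31 and 0.06 in OH middle intestine, with no overlap.

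**Figure D3:**
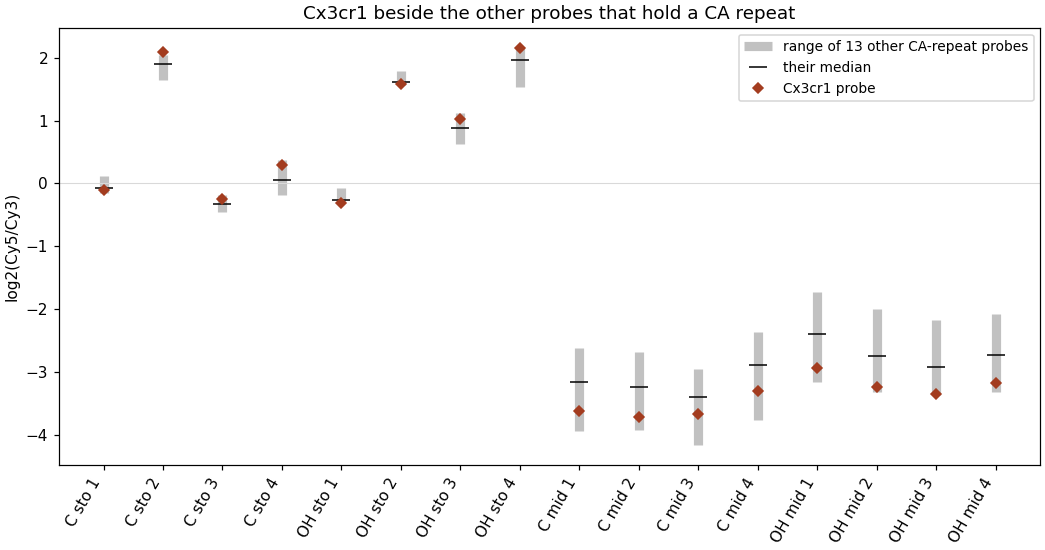
Log2(Cy5/Cy3) (y axis) on each of the 16 arrays (x axis; sto, stomach; mid, middle intestine) of the Cx3cr1 probe (red diamonds) and of the 13 other probes whose sequence holds at least 8 CA units (grey bars, lowest to highest; black lines, median). The Cx3cr1 probe lay within 0.54 of the median on every array.

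Cxcl12 and Ccl19, ligands of stroma and follicles, varied widely among the arrays of a group. For Cxcl12, the stromal ligand of Cxcr4 and Cxcr7, the ratios were -1.40, -2.57, -1.02 and -0.76 in C stomach and 1.38, -1.29, -2.49 and 0.85 in OH stomach. In the middle intestine they ran from -0.63 to 0.24 in C and from -0.59 to 0.15 in OH. The OH stomach arrays fell into a high pair, replicates 1 and 4, above every C stomach array, and a low pair within the range of C. The difference between tissues was -1.28 in C (adjusted p = 0.130), while a second probe gave -1.30 and passed (adjusted p = 0.0424), and -0.11 in OH (adjusted p = 0.912). The mean over 7 smooth muscle genes was 0.91, -1.47, -2.57 and 0.08 on the same OH stomach arrays and -2.22, -2.57, -1.49 and -2.10 on the C stomach arrays, and over 6 fibroblast genes it was 0.58 and 0.12 on OH stomach replicates 1 and 4, above replicates 2 and 3, of which replicate 3 was at -1.68. The same pair was high for Ccl11, with -0.53, -1.79, -2.41 and -0.54 in OH stomach. How far the muscle layer sampled enters these values was not tested. Cxcr4 differed by -0.06 and -0.34 and did not pass. Cxcr7 was higher in C stomach by 0.64 with an adjusted p of 0.0468, a call that leaving out any of 12 of the 16 arrays ended (adjusted p of 0.0502 to 0.150): C stomach replicates 1, 3 and 4, OH stomach replicates 2, 3 and 4, C middle intestine replicates 1 and 2, and all 4 OH middle intestine arrays. The difference without 1 of these arrays was 0.46 to 0.64.

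Ccl19, which with Ccl21 draws Ccr7-bearing T cells and dendritic cells into lymphoid tissue, had ratios of -2.17, 0.16, -2.54 and 1.55 in C middle intestine and 1.58, -1.88, 0.39 and 0.93 in OH middle intestine. In stomach it ran from -2.95 to -1.68 in C and from -3.19 to -1.45 in OH. In each intestine group some arrays lay near the stomach level and others well above it. The difference was -1.46 in C (adjusted p = 0.186) and -2.55 in OH (SE 0.872; adjusted p = 0.0315), and it was -2.06 and -0.70 in C without C middle intestine replicates 3 and 4. The OH call was lost without OH stomach replicate 2 (-2.25; adjusted p = 0.0865) or 3 (-2.30; 0.0761), or without OH middle intestine replicate 1 (-2.11; 0.0942), 3 (-2.51; 0.0637) or 4 (-2.33; 0.0775), and the difference was -3.26 without OH middle intestine replicate 2. Cd79b, a subunit of the B cell receptor, was at -2.03, 2.21, -2.22 and 2.74 on the C intestine arrays and at 3.03, -0.66, 1.91 and 1.98 on the OH intestine arrays, high on the arrays where Ccl19 was high. It was well above background on 2 C intestine arrays, on all 4 OH intestine arrays and on no stomach array. Only 2 of the 8 B cell genes on the array could be tested, and how lymphoid tissue in the piece taken enters Ccl19 was not tested. Ccr7 had its highest ratios, 1.66 and 1.53, on C middle intestine replicate 4 and OH middle intestine replicate 1, as did Cxcr4, at -0.36 and -0.66. Cxcl13, the B cell ligand, read -0.39 and -0.64 there and -2.61 on OH middle intestine replicate 2, its lowest. Neither Ccl21, Ccr7 nor Cxcl13 passed between tissues.

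**Figure D4:**
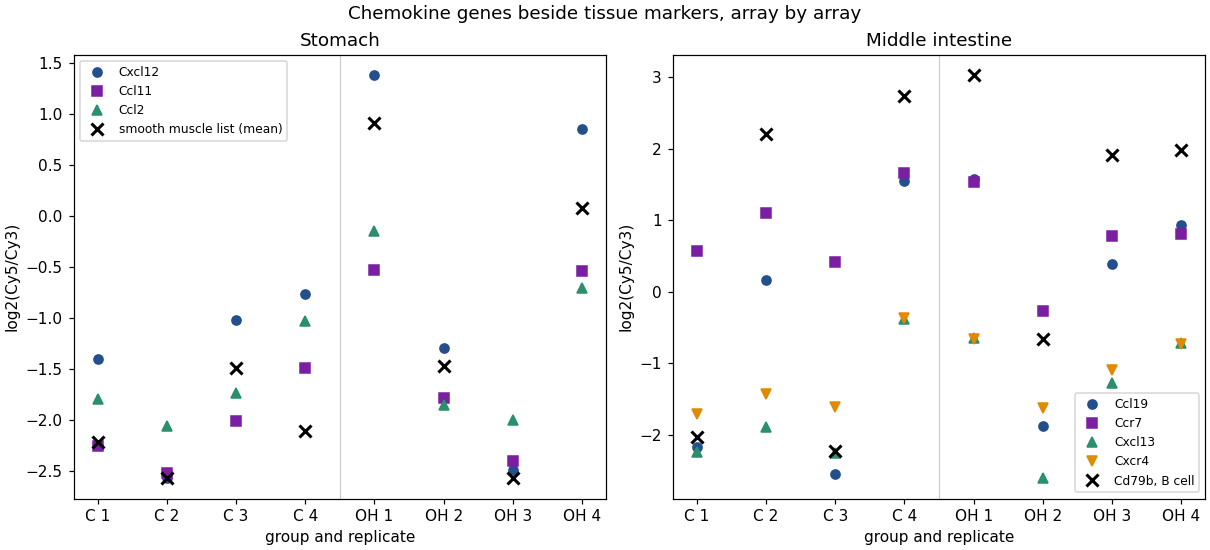
Log2(Cy5/Cy3) (y axis) on each array (x axis) of Cxcl12, Ccl11 and Ccl2 in stomach beside the mean of 7 smooth muscle genes, and of Ccl19, Ccr7, Cxcl13 and Cxcr4 in the middle intestine beside the B cell gene Cd79b. The other B cell gene tested, which varied far less, is not shown. OH stomach replicates 1 and 4 lie above replicates 2 and 3 for Cxcl12 (1.38 and 0.85 against -1.29 and -2.49) and for the smooth muscle mean.

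Genes of the same pathway outside the family were counted by list. Of 10 atypical receptors and chemokine-like genes tested, 1 was higher and 4 lower in stomach in C, and 1 and 3 in OH, the higher one being the Ackr4 probe with the CA repeat; Cd74, the receptor of the chemokine-like cytokine Mif, was lower by -1.12 and -1.39, and Ccrl2, which presents chemerin, by -1.02 in C. Of 26 signalling genes downstream of the receptors, 5 were higher and 6 lower in C and 1 and 9 in OH: Elmo1, which links receptors to Rac, was higher by 1.79 and 0.97 and the kinase Jak2 by 0.50 in C, and Rgs1, which damps G protein signalling in lymphocytes, was lower, at -4.04 and -2.62. Of 18 inducers of chemokine transcription, 5 were higher and 3 lower in C and 1 and 4 in OH: Il1a was higher by 1.73 and the bacterial sensor Tlr2 by 1.63 in C, and the NF-kappaB subunit Rela by 0.44 and 0.38, while Il1b was at -2.66 and -2.24 and the interferon-induced factor Irf1 at -1.81 and -2.55. Of 8 homing and adhesion genes, 3 were lower in stomach in C and 4 in OH, with 0 higher, including the integrin subunit Itga4 at -2.80 and -2.03, its partner Itgb7 at -0.69 and -1.15, and their ligand Madcam1, the address marker of gut venules, at -1.33 and -1.45. Dpp4, a peptidase that trims chemokine ends, was lower by -1.21 and -1.54, among 5 processing genes of which 1 was higher and 1 lower in C and 1 and 2 in OH. The backgrounds are those given above for each treatment.

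Obestatin was compared with saline within each tissue. No chemokine or receptor gene passed in stomach, where 0 of all genes did (0%), or in the middle intestine, where 0.234% of all genes did, and the smallest adjusted p values of the 39 were 0.316 and 0.166. At an unadjusted p under 0.05 there were 5 genes in stomach (background 10.8%) and 2 in the middle intestine (background 9.31%). The median of OH minus C was 0.02 in stomach and -0.03 in the middle intestine, and 27 and 35 of the 39 genes lay within 0.5 of 0 on the log2 scale, against 86.6% and 91.8% of all genes. The median standard error of the 39 was 0.327 against 0.195 for all genes. The interaction, OH minus C in stomach against OH minus C in the middle intestine, gave 0 calls (smallest adjusted p = 0.836) and 0 at an unadjusted p under 0.05 (background 5.92%), so a gene that passed between tissues in C alone or in OH alone was not shown to differ between C and OH.

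Xcl1 was the 1 gene lower in OH in both tissues with no overlap of the arrays and an unadjusted p under 0.05. Its ratios in stomach were -1.89, -1.79, -2.04 and -1.82 in C and -2.11, -2.23, -2.30 and -2.23 in OH. In the middle intestine they were -1.37, -1.38, -0.86 and -1.03 in C and -1.64, -1.41, -1.67 and -1.66 in OH. All 4 OH arrays lay below all 4 C arrays in each tissue, narrowly so in the middle intestine, where the nearest arrays read -1.41 and -1.38. The difference was -0.33 in stomach (95% interval -0.60 to -0.07; limma adjusted p = 0.397) and -0.44 in the middle intestine (-0.70 to -0.17; adjusted p = 0.166), neither of which passed. The exact permutation p was 0.0286 in each, two-sided, the smallest that 4 against 4 arrays allow. Any gene whose arrays do not overlap has this value, so it adds nothing to the non-overlap by which Xcl1 was picked. Split by channel and scaled to each array's upper quartile, Cy5 fell by 0.41 and 0.39 while the pool's Cy3 signal differed by -0.09 and 0.06. Without that scaling Cy5 differed by -0.07 and -0.26 and Cy3 by 0.26 and 0.18, so which channel carried the difference depended on the scaling. It passed in the middle intestine with normexp and loess (-0.37; adjusted p = 0.0286). A second probe of Xcl1 was dim and was not tested. Non-overlap together with an unadjusted p under 0.05 held for 2 of the 39 genes in stomach (background 4.14%) and 1 in the middle intestine (background 3.94%). The share of all genes that met this rule in both tissues was not computed.

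Other genes with an unadjusted p under 0.05 differed in how far their signal could be measured. Ccl25 was the second non-overlapping gene in stomach (-0.78; adjusted p = 0.334), where it was well above background on no array of C or OH, so both readings lay below the level called well above background. Ccr8, a receptor of T helper and regulatory T cells, was lower in OH stomach by -0.98 (adjusted p = 0.316) with 4 C arrays and 2 OH arrays well above background, and by -0.12 with normexp and loess. Ccr8 was tested only because C stomach, the higher group, was well above background throughout, so this difference supports nothing further. Cxcl3 was at -1.40 (adjusted p = 0.464) in stomach, with the groups overlapping. For Cxcl11 in the middle intestine the difference was 0.44 (adjusted p = 0.464), of which Cy5 gave 0.05 and the pool's Cy3 -0.38 after scaling, and 0.18 and -0.26 without it. For Cxcl17 and Ccl25, where they are high, the differences of OH minus C lay near 0: Cxcl17 in stomach -0.01 (95% interval -0.48 to 0.45) and Ccl25 in the middle intestine -0.20 (-0.75 to 0.35). The intervals of the follicle and stroma ligands were wide, as for Ccl19 in the middle intestine at 1.00 (-0.86 to 2.87) and Cxcl12 in stomach at 1.05 (-0.36 to 2.47). The second probe of Cxcl12 gave 1.21 in stomach (0.16 to 2.25; limma unadjusted p = 0.0267, adjusted p = 0.420), with the arrays overlapping.

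**Figure D5:**
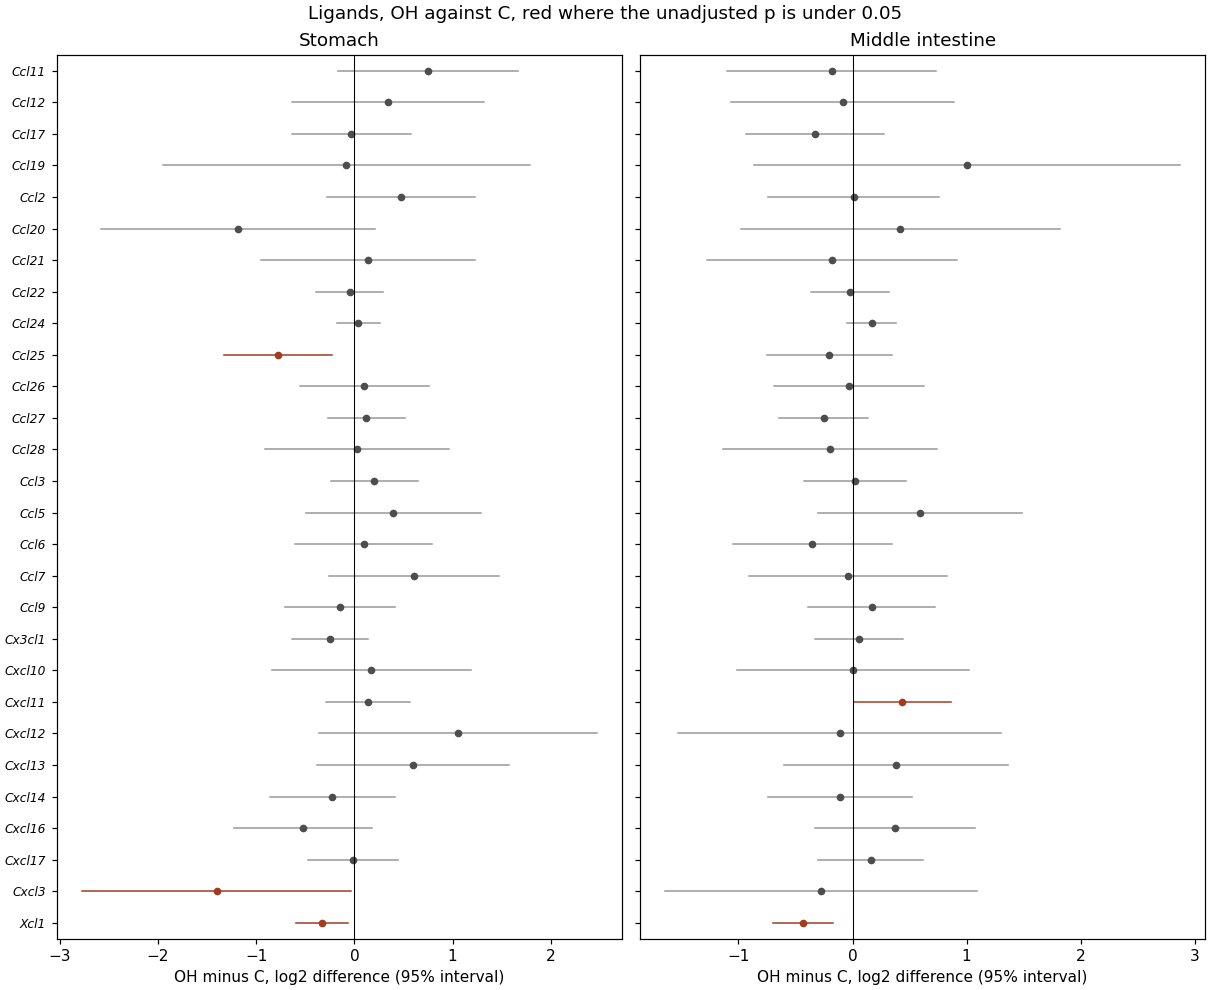
Log2 difference, OH minus C (x axis), with its 95% interval from the limma fit over 4 arrays a group, of the 28 ligand genes tested (rows) in stomach and in the middle intestine (panels); red marks an unadjusted p under 0.05. Ccl25, Cxcl3 and Xcl1 are red in stomach and Cxcl11 and Xcl1 in the middle intestine, and Xcl1 is the 1 ligand that is red in both.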

How the data were processed

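Per the labels and the study's methods, the authors hybridised Cy5-labelled RNA of each rat against a Cy3-labelled pool and extracted spots with Agilent Feature Extraction (10.10.1.1 in the file headers, 10.7.3.1 in the labels), which subtracted background and normalised dyes by Lowess. The deposited processed signals are intensities; the deposited series table holds log10 ratios of the same arrays. Here log2(Cy5/Cy3) was formed without further scaling, control and outlier spots were left out, spots of a probe were averaged, and the brightest probe stood for a gene. Of 30367 probes, 21174 were kept (well above background on all 4 arrays of a group, at least 3 values per group). Group means were fitted over 16 arrays with limma 3.58.1 in R 4.3.3, with Benjamini-Hochberg adjustment over the kept probes and a threshold of 0.05; the fit was tested on simulated data. Exact permutation tests were two-sided. Values on every array were given for genes that passed with a difference of 2 or more in C and in OH, for those not overlapping in OH against C at an unadjusted p under 0.05, and for their partners; Cxcl3, Cxcl12 and Ccl19 were added after their values were seen. Values of some genes in the counts are not reported here. Accessions of 51 of the 54 genes matched RefSeq, 2 under other symbols (Cxcr7 as Ackr3, Cxcl5 as Cxcl6). The members and lists were chosen with earlier results of these data known. The labels do not say which stomach and intestine arrays share a rat or a litter, so p-values measure the spread between arrays, taken as independent. Alternatives were normexp (offset 50) with loess, other scalings, Cy5 alone, the log10 table, no filter, outlier spots kept, the compared groups alone, the replicate block, a robust prior, the mean of a gene's probes, the methods' ANOVA with Tukey's test, and each array left out.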

Additional observations from a re-analysis of the deposited data

Results flagged for a closer look

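In 4 of 156 groups of 4 arrays, 1 array lay farther from the rest than Dixon's 95% limit for 4 values allows; chance alone flags about 1 in 20 groups, or 7.8 here. Ccl12 in C stomach replicate 3 was at -4.05, with the nearest array at -2.26. Cxcl16 in C stomach replicate 2 was at -0.50 against 0.47, on the array that was also low in striated muscle genes. Cxcl3 in OH middle intestine replicate 4 was at -2.27 against -1.02, on the array that was high in pancreas genes. Xcl1 in OH middle intestine replicate 2 was at -1.41 against -1.64, the array that lay nearest to the C arrays.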

How the results depend on the processing

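Over the alternatives, 15 to 22 genes passed between tissues in C and 15 to 20 in OH, and 16 to 20 and 14 to 19 with 1 array left out. With both arrays that stood apart left out, chosen after seeing the data, the counts were 19 and 15. Between OH and C, 0 genes passed in stomach and for the interaction under every setting in which they were computed. In the middle intestine 1 gene passed with normexp and loess (Xcl1), 1 with Cy5 alone (Cxcr2) and 1 by the methods' ANOVA with Tukey's test (Xcl1), and 0 otherwise; the cause was not tested. The difference of Ccr9 in OH, near 0, changed sign with normexp and loess (-0.0041) and ran from -0.054 to 0.34 with 1 array left out. Ccl24 in OH passed with normexp and loess, median centring, Cy5 alone, a robust prior, or without OH stomach replicate 1 or C middle intestine replicate 1 or 4. The call of Cxcr7 in C was also lost with normexp and loess, median centring, no filter and the compared groups alone (adjusted p of 0.0666 to 0.0989), and that of Cxcl3 with the compared groups alone (0.0647). Ccl9 and Ccl24 in C passed with Cy5 alone (adjusted p = 0.0308 and 0.0349), and Ccl9 with the compared groups alone (0.0435). Same-numbered stomach and intestine arrays correlated at 0.058 to 0.25 in C, where 3 of 4 correlated best with their own number, and at -0.12 to 0.32 in OH, where 2 of 4 did; not every pair exceeded 0.1 and the labels tie no number to 1 rat, so the arrays were not taken as paired, and with the replicate block the counts were 18, 17, 0, 0 and 0, as without it. Dim probes give bounds that hold under the setting described, and not folds, and the pool's brightness differed between C and OH slides.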
